A study of Homo sapiens with 21 samples.

Results

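The genes of the proteasome were followed through ChIP-seq peak lists of a breast cancer cell line. Members were the protein-coding genes on chromosomes 1 to 22 and X whose symbol begins with PSMA, PSMB, PSMC, PSMD, PSME, PSMF or PSMG followed by a number. This gave 50 of 19974 protein-coding genes. By name, 48 of them are subunits, regulators or assembly factors of the proteasome. PSMC3IP and PSME3IP1, which are named as interaction partners of PSMC3 and PSME3, match the symbols without being subunits and were kept as a group of their own.

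The proteasome is the protease that degrades ubiquitin-tagged proteins. Its 20S core is a barrel of alpha rings, which gate the entrance, around beta rings, which carry the proteolytic sites. The 19S regulatory particle docks on the core. Its ATPases (PSMC) unfold the substrate, and its other subunits (PSMD) recognise and remove ubiquitin. Because cells need the subunits in fixed proportions, the genes are expressed in nearly all tissues and are known to be induced together by the transcription factor NFE2L1 when proteasome activity falls. Immune cytokines exchange the catalytic beta subunits for PSMB8, PSMB9 and PSMB10, which form the immunoproteasome.

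CAMA1 is an oestrogen receptor-positive human breast cancer line with an amplified FGFR1 gene. All cells were kept without estradiol for 48 h. Untransfected cells gave peak lists for FGFR1, the histone marks H3K4me3 (promoters) and H3K27ac (active promoters and enhancers), RNA polymerase II phosphorylated at serine 5 (Pol II S5P, the initiating form), and FOXA1. FGFR1 alone was mapped in cells collected 72 h after transfection with siNT, a control siRNA, or siFOXA1, which targets FOXA1. FGFR1 is a receptor tyrosine kinase of the cell surface that has also been found in the nucleus, and FOXA1 is a forkhead pioneer factor on which oestrogen receptor binding depends. Each of the 7 groups had 2 lists, called list 1 and list 2 after the replicate number, which makes 14 lists from 1 cell line. The labels do not say whether the replicates came from separate cultures. Input libraries (7) had no lists. How far FOXA1 itself was depleted cannot be read from these lists.

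A member was scored in a list when a peak lay within 1 kb of either end of the gene. Fold enrichment is the authors' value for the strongest such peak over the background of its library. A percentile ranks it among all genes with a peak in the same list. The background was 2.11 to 4.33 fragments per position in the 12 lists where it could be read, and the lists held 4332 to 154358 peaks. The weakest peaks of the 6 FGFR1 lists had 10 to 14 fragments at the summit. Of the luminal breast markers, 7 of 8 had H3K4me3 in both lists at a gene end. The exception was ESR1, which encodes the oestrogen receptor. It had H3K27ac at its ends, at 19.2 and 23.2, and start sites inside the gene were not scored for markers. GATA3 had the lowest H3K4me3 folds of the marked luminal genes, 16.9 and 20.4. Of the other markers, 1 of 4 basal (ZEB1), 2 of 4 blood (SPI1, and CD3E with folds of 4.10 and 3.69) and 1 of 2 liver genes (APOA1) were marked.

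The promoters that carry the main patterns are printed here as they stand in RefSeq (GRCh38.p14), which held 44 of the 50 members. Each is the 250 bases before the start site, 5′ to 3′ on the gene's strand. Capitals mark matches to any of 7 motifs searched on both strands. These were GCATGCGC for NRF1, TGACNNNGC for the antioxidant response element bound by NFE2L1 and related factors, CCGGAAGT for the ETS family, AAGATGGCG for YY1, CCAAT for NFY, TGTTTAC for the forkhead (FOX) family and TATAAA for the TATA box. PSMD5 is shown because it had the strongest FGFR1 peaks of all members in untransfected cells, and PSMD6 because its start site was in all 6 FGFR1 lists. PSMF1 is shown for a second start site that carried the marks its annotated ends lacked. PSMC4 and PSMD8 had FGFR1 in the pair of siNT lists and lacked it in the siFOXA1 lists. PSMB9, an immunoproteasome gene, shares its promoter region with TAP1.
PSMD5 (chr9:120842923-120843172, minus strand): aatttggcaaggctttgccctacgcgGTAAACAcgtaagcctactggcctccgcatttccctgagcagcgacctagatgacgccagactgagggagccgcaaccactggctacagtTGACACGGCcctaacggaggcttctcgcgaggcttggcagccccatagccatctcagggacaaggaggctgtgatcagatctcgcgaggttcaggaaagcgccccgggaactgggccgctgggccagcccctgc
PSMD6 (chr3:64023495-64023744, minus strand): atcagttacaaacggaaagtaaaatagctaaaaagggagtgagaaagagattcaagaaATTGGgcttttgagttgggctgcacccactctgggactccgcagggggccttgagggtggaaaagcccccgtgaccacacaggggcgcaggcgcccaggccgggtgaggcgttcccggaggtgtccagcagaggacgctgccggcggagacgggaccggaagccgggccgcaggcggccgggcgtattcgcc
PSMF1 (chr20:1118352-1118601, plus strand): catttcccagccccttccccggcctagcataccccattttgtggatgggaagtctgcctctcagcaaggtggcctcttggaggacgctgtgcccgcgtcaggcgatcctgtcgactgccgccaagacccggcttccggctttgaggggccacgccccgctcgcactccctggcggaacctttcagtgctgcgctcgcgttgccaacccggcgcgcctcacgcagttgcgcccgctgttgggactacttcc
PSMC4 (chr19:39970915-39971164, plus strand): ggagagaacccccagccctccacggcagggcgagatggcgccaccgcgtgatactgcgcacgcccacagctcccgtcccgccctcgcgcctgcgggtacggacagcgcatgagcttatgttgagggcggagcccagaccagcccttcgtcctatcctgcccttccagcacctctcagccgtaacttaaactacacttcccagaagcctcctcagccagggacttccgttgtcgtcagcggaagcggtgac
PSMD8 (chr19:38374321-38374570, plus strand): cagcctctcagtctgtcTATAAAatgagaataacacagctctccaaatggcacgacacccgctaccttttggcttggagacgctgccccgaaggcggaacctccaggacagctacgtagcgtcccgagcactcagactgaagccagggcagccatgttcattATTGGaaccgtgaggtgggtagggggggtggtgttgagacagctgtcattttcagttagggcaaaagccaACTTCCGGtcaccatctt
PSMB9 (chr6:32853942-32854191, plus strand): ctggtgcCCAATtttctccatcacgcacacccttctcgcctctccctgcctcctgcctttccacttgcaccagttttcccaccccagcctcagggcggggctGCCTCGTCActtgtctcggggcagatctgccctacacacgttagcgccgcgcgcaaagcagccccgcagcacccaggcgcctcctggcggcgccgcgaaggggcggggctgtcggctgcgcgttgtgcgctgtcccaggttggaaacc
In PSMD5 the capitals are a FOX match 224 to 218 bases before the start and an antioxidant response element match 134 to 126 bases before it. PSMB9 has an NFY match and an antioxidant response element match, PSMD6 an NFY match, and PSMD8 TATA, NFY and ETS matches. None of the 7 motifs was found in the printed bases of PSMF1 and PSMC4. An ETS match of PSMF1 lies across its start site, and an antioxidant response element match of PSMC4 lies 28 to 36 bases after the start.

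H3K4me3 was present in both lists at 45 of the 50 members (90%, 95% Wilson interval 78.6% to 95.7%). Among all other protein-coding genes the share was 66.3%. The intervals cover counting error only. The same 45 members had H3K27ac in both lists, 100% of the marked members beside 95.1% of the 13219 other genes with H3K4me3. These other marked genes serve as the comparison for shares from here on. Percentiles and summit positions are set beside those of all other genes with a peak in the list, marked or not. The H3K4me3 peaks of members had a median percentile of 65.0 in list 1 and 64.3 in list 2, where the other genes stood at 50.2 and 50.1. For H3K27ac the medians were 62.8 and 62.4, beside 50.3 and 50. Both histone marks were thus higher at the typical proteasome gene than at the typical other gene with that mark in the list.

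Pol II S5P was in both lists at 32 members, 71.1% of the 45 marked ones (56.6% to 82.3%), beside 58.2% of the comparison genes, a share inside that interval. A further 8 members had it in list 1 only. Its strength was ordinary, with median percentiles of 46.2 and 52.1. FOXA1 was in both lists at 21 members. Of the marked ones, 20 had it (44.4%, 30.9% to 58.8%), beside 44.1%. FOXA1 peaks at members had median percentiles of 37.9 and 37.5. These were lower than the 50.6 and 50.9 of all other genes with a FOXA1 peak, marked or not. Rank against marked genes alone was not computed.

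FGFR1 was in both untransfected lists at 13 members, all of them marked (28.9%, 17.7% to 43.4%), beside 29.7% of the comparison genes. The share at proteasome genes was close to this background. List 1 held 13 members and list 2 held 32, with single-list backgrounds of 29.8% and 61.8%. All 13 members of list 1 were also in list 2, as were 3928 of the 3945 comparison genes of list 1. A further 19 members were in list 2 only. In 13 of 13 the fold was higher in list 2, a share not computed for other genes. The count in both lists is therefore the count of list 1, the shorter list (5341 peaks against 13135). FGFR1 peaks of members had a median percentile of 45.7 in list 1 and 55.7 in list 2, beside 51.2 and 50.4 for the other genes.

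**Figure D1:**
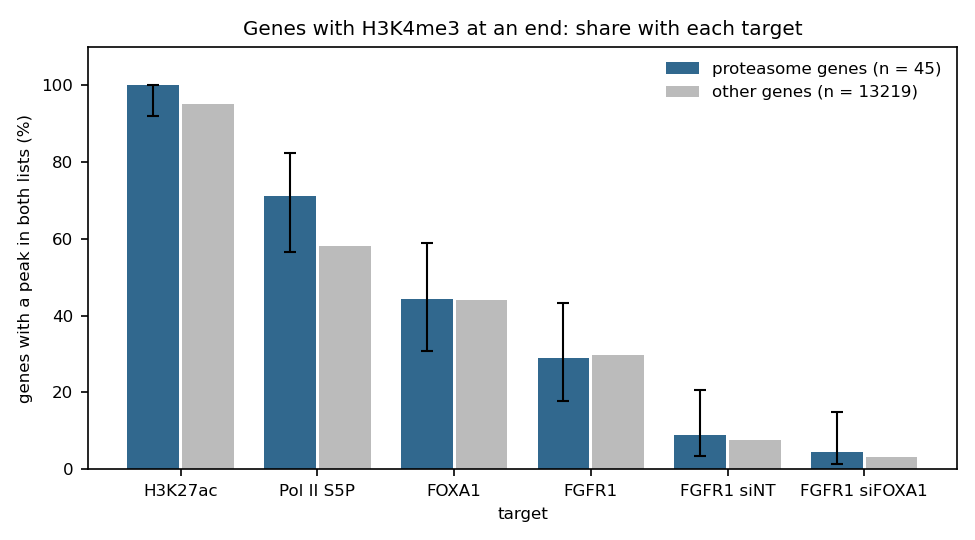
Share of genes (%, vertical axis) with a peak in both lists of each target (horizontal axis), for the 45 proteasome genes with H3K4me3 (blue, 95% Wilson intervals) and the 13219 other genes with H3K4me3 (grey). For FGFR1 the bars stand at 28.9% and 29.7%, and the widest gap is for Pol II S5P, at 71.1% and 58.2%.

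Of the 13 FGFR1 members, 12 had Pol II S5P in both lists (92.3%), as did 92.6% of the 3928 comparison genes with FGFR1, so the members stood at the background. Among the 32 marked members with Pol II S5P in both lists, 12 had FGFR1 (37.5%), beside 47.3% of the comparison genes with Pol II S5P. Among the 13 without it, 1 had FGFR1 (7.69%), beside 5.28%. The single exception was PSMD6. With FOXA1 in both lists, 6 of 20 members had FGFR1 (30.0%, comparison genes 39.1%), and without it 7 of 25 (28.0%, comparison genes 22.3%). The difference between members and other genes within these classes was not tested.

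**Figure D2:**
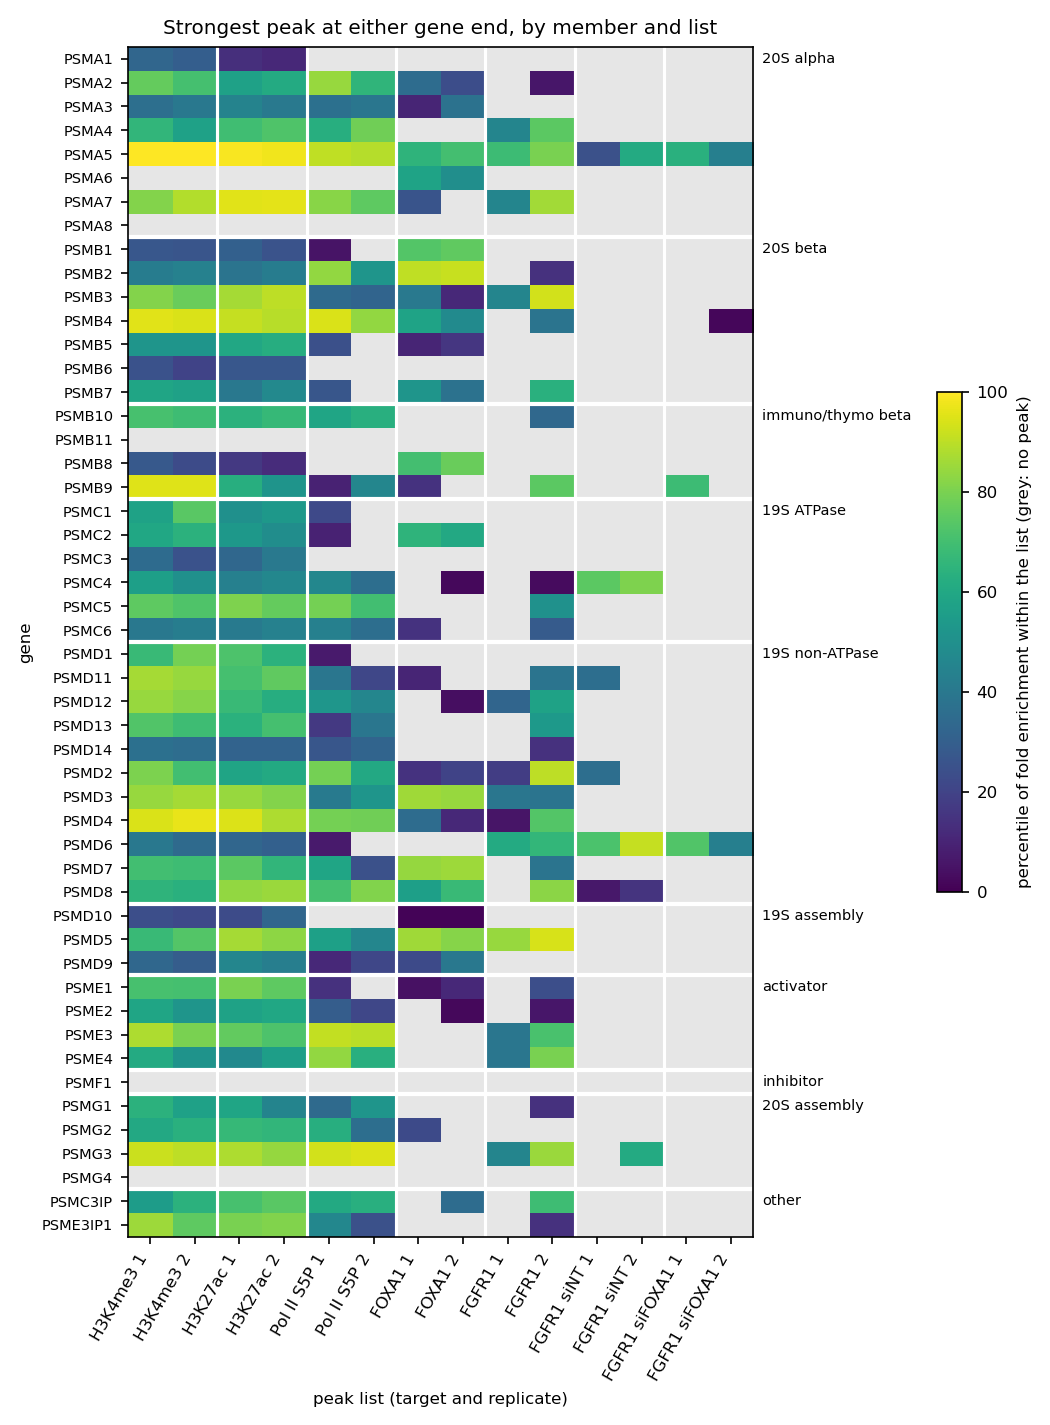
Each row is 1 of the 50 genes, ordered by role, and each column 1 of the 14 lists. Colour gives the percentile of the strongest peak within its list, and grey means no peak within 1 kb of either gene end. Histone marks fill 45 rows, FGFR1 list 2 fills 32 rows and list 1 fills 13, and the siFOXA1 lists fill 3 rows each.

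The alpha subunits form the outer rings of the core. FGFR1 was in both lists at 3 of 8 (PSMA4, PSMA5 and PSMA7), in list 2 only at PSMA2 (3.77-fold), and in neither at PSMA1, PSMA3, PSMA6 and PSMA8. PSMA4 (chromosome 15, 78540405 to 78552417) had FGFR1 folds of 5.23 and 7.99 at its start, with 22 and 35 fragments at the summits. Its H3K4me3 folds were 97.0 and 95.3, its H3K27ac folds 37.1 and 41.4, and its Pol II S5P folds 10.0 and 10.4. It had no FOXA1 peak and no FGFR1 peak in the transfected lists. PSMA7 (chromosome 20, 62136733 to 62143394) had FGFR1 folds of 5.23 and 9.77 and strong H3K27ac, at 54.8 and 59.5. H3K4me3 stood at 101 and 105 and Pol II S5P at 13.1 and 9.90, and FOXA1 was in list 1 only, at 4.59. The FGFR1 peak of PSMA7 also lies at an end of SS18L1, whose nearest end is 375 bp away.

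PSMA5 (chromosome 1, 109399042 to 109426448, minus strand) had the highest histone folds of the set by the scoring rule, with H3K4me3 at 110 and 113 and H3K27ac at 67.1 and 64.8. These peaks lie at its 3′ end, on the SORT1 side, as do both FOXA1 peaks (9.18 and 9.93) and the Pol II S5P peak of list 1 (15.7, beside 12.6 at the 5′ end in list 2). At the start site of PSMA5 itself, H3K4me3 stood at 109 and 111, H3K27ac at 53.7 and 58.3, Pol II S5P at 14.2 and 12.6, and FOXA1 at 5.63 and 5.44. FGFR1 was in all 6 lists, at 6.37 and 8.66 untransfected, 4.71 and 5.95 with siNT, and 6.11 and 5.0 with siFOXA1. In 5 of the 6 lists the strongest peak lies beyond the 3′ end of PSMA5, towards SORT1, whose end is 1124 bp from it. In siFOXA1 list 1 it was at the 5′ side. At the start site, FGFR1 was in untransfected list 2 (6.88), siNT list 2 (4.39) and siFOXA1 list 1 (6.11). PSMA5 is also the 1 member in the 34 windows of 1 Mb that hold over 10 times the mean number of FGFR1 peaks of the transfected lists. With RefSeq start sites in place of gene ends, PSMA5 therefore had FGFR1 in both lists of no condition.

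The beta subunits include the constitutive catalytic sites, PSMB5 (chymotrypsin-like, the main target of bortezomib), PSMB6 (caspase-like) and PSMB7 (trypsin-like). None of the catalytic subunits had FGFR1 in both lists. PSMB7 had a peak in list 2 (6.88-fold), and PSMB5 and PSMB6 had none. H3K4me3 and H3K27ac were in both lists at 7 of 7 beta genes. Pol II S5P was in both at 3 of 7 (PSMB2, PSMB3 and PSMB4), and in list 1 at 6. The interval of 15.8% to 75.0% for both lists includes the background of 58.2%. FOXA1 was in both at 6 of 7 (PSMB6 was the exception, interval 48.7% to 97.4%), and at 4 of 8 alpha genes (21.5% to 78.5%). The background was 44.1% among marked genes, and the difference was not tested. The alpha genes take in PSMA6, which had FOXA1 without H3K4me3, and PSMA8, which had neither. PSMA3 was counted through a peak at its 3′ end in list 1 and another at its 5′ end in list 2. PSMB2 had the highest FOXA1 folds of all members, 23.6 and 24.6, with 112 and 130 fragments, and only a weak FGFR1 peak in list 2 (4.22-fold). PSMB1, with FOXA1 at 11.3 and 11.8, had no FGFR1 peak in any list.

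PSMB3 (chromosome 17, 38752741 to 38764225, plus strand) was the 1 beta gene with FGFR1 in both lists. Its folds were 5.23 and 12.7, or 22 and 56 fragments. Its summits lay 863 and 931 bases before the start, far from the typical position given below. H3K4me3 (101 and 102) covered the gene's start. H3K27ac (45.5 and 52.3) came from broad domains whose strongest point was 4931 and 4887 bases upstream. The domain of list 1 covered the start and that of list 2 ended before it. Pol II S5P folds were 7.14 and 6.33, and FOXA1 folds 5.63 and 3.75. PSMB4 had FGFR1 in list 2 (5.33-fold) and in siFOXA1 list 2 (3.75-fold) only.

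The labels name no cytokine treatment, and 3 immunoproteasome genes were marked. PSMB8 had H3K4me3 at 77.8 and 72.3, H3K27ac at 11.7 and 8.71 and FOXA1 at 10.4 and 12.6, and neither Pol II S5P nor FGFR1 in any list. PSMB9 had H3K4me3 at 105 and 108, H3K27ac at 34.3 and 31.7, and Pol II S5P at 4.93 and 7.23. FOXA1 was in list 1 only (3.96). Its FGFR1 peak was in untransfected list 2 (7.99) and siFOXA1 list 1 (6.43), with summits at the printed bases, and in neither siNT list. PSMB10 (chromosome 16, 67934506 to 67936850) had H3K4me3 at 98.3 and 99.3, H3K27ac at 35 and 38.7, Pol II S5P at 9.56 and 8.57, no FOXA1, and FGFR1 in list 2 only (5.11). PSMB11, the beta subunit of the thymus, had no peak in any of the 14 lists.

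PSMB9 stands 488 bp from TAP1, which encodes the peptide transporter that feeds proteasome products to MHC class I, and PSMB8 stands 530 bp from the other end of TAP1. Peaks between them cannot be given to 1 gene. TAP1 had the same FGFR1 values as PSMB9, 7.99 and 6.43. Of 9 antigen presentation genes, all had both histone marks in both lists, 5 had Pol II S5P (55.6%, background 58.2%), and 3 had FGFR1 in both lists (TAPBP, B2M and IRF1, 33.3%, background 29.7%). Both shares are near the background.

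The ATPase subunits are the motor of the 19S particle. All 6 had both histone marks in both lists, and none had FGFR1 in both untransfected lists. PSMC4 (3.55), PSMC5 (6.0) and PSMC6 (4.89) had it in list 2 only, and PSMC1, PSMC2 and PSMC3 had none. The same genes PSMC4, PSMC5 and PSMC6 were those with Pol II S5P in both lists. For 6 genes, a count of 0 has a Wilson interval up to 39.0%, which includes the background.

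Among the non-ATPase subunits of the 19S particle, FGFR1 was in both lists at 5 of 11 (PSMD2, PSMD3, PSMD4, PSMD6 and PSMD12), the largest number of any role. The interval of 21.3% to 72.0% includes the background. List 2 alone had PSMD7 (5.33), PSMD8 (9.10), PSMD11 (5.33), PSMD13 (6.22) and PSMD14 (4.22), and PSMD1 had no FGFR1 peak. Pol II S5P was in both lists at 9 of 11 (52.3% to 94.9%, background 58.2%). PSMD14, the deubiquitinase that cuts ubiquitin chains off the substrate, had modest marks throughout, with H3K27ac at 21.1 and 22.

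PSMD2 (chromosome 3, 184299241 to 184309050), a scaffold and ubiquitin-receptor subunit, differed most between the lists by ratio. Its FGFR1 folds were 4.32 and 10.9, from 18 and 48 fragments. H3K4me3 stood at 101 and 99.5, H3K27ac at 32.6 and 35.8, Pol II S5P at 12.4 and 8.34, and FOXA1 at 3.96 and 4.12. The peak returned in siNT list 1 (5.02) only. PSMD4 (chromosome 1, 151254734 to 151267479), a ubiquitin receptor, had FGFR1 at 3.87 and 7.77. Its H3K4me3 folds were 105 and 109, its H3K27ac folds 53.2 and 50.3, its Pol II S5P folds 12.4 and 10.4, and its FOXA1 folds 5.22 and 3.75. The first FGFR1 peak had 16 fragments, near the weakest peak of that list (14).

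PSMD12 (chromosome 17, 67337916 to 67366577) had FGFR1 at 4.78 and 6.44, H3K4me3 at 102 and 103, H3K27ac at 36.4 and 36.5, and Pol II S5P at 8.90 and 7.23. FOXA1 was in list 2 only, at 3.19. PSMD3 had FGFR1 at 5.0 and 5.33 beside strong FOXA1 at 18.6 and 16.7. PSMD7 had nearly as much FOXA1 (17.1 and 17.2) and FGFR1 in list 2 only. These 2 genes had like FOXA1 folds and differed in FGFR1 list 1.

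PSMD6 (chromosome 3, 64010551 to 64024007, minus strand), a lid subunit, was the member with FGFR1 in all 6 lists at its own start. Its folds were 5.91 and 7.11 untransfected, 6.59 and 9.71 with siNT, and 6.75 and 5.0 with siFOXA1. In fragments these were 25, 31, 20, 30, 20 and 15. The summits lay 88, 96, 71, 87, 64 and 41 bases before the start site, and the peaks covered 169 to 203 of the 250 printed bases. The siFOXA1 values overlap the siNT values. Its other marks were modest for the set. H3K4me3 stood at 86.6 and 83.1, H3K27ac at 21.6 and 21.3, and Pol II S5P was in list 1 only (4.71). FOXA1 was not listed there, before any knockdown.

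The assembly factors of the 19S base, PSMD5, PSMD9 and PSMD10, bind the ATPases before the particle is complete. All 3 had FOXA1 in both lists (interval 43.9% to 100%, background 44.1%), and PSMD5 alone had FGFR1. PSMD5 (chromosome 9, 120816053 to 120842922, minus strand) had the highest FGFR1 folds of all members in both lists, 7.96 and 13.1. These rest on 34 fragments (95% Poisson interval 23.5 to 47.5) and 58 fragments (44.0 to 75.0), at percentiles of 84.5 and 94.1. The summits lay 10 and 62 bases before the start, and both peaks cover all 250 printed bases, the FOX match included. H3K4me3 stood at 97.5 and 101, H3K27ac at 45.7 and 46.9, Pol II S5P at 9.34 and 7.23, and FOXA1 at 18.8 and 14.8. None of the 4 transfected lists had FGFR1 at PSMD5, siNT included. At PSMD10 FOXA1 was near the weakest values of its lists (2.92 and 2.81).

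Among the activators, which open the core without the 19S particle, PSME3 and PSME4 (nuclear activators) had FGFR1 in both lists. PSME1 (4.66) and PSME2 (3.77), the cytokine-induced pair, had it in list 2 only. PSME3 (chromosome 17, 42833397 to 42843760) had FGFR1 at 5.0 and 7.55, H3K4me3 at 103 in both lists, H3K27ac at 40.0 and 41.1, and Pol II S5P at 15.9 and 12.8. PSME4 (chromosome 2, 53864069 to 53970993) had FGFR1 at 5.0 and 8.66, H3K4me3 at 95.6 and 93.0, H3K27ac at 28.0 and 33.6, and Pol II S5P at 13.5 and 8.57. Neither had FOXA1. The peak of PSME4 also lies at an end of ACYP2, 120 bp away.

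Of the chaperones that assemble the 20S rings, PSMG3 (chromosome 7, 1567332 to 1570032) had FGFR1 at 5.23 and 9.55 and in siNT list 2 at 5.95. H3K4me3 stood at 104 and 106, H3K27ac at 46.5 and 47.7, and Pol II S5P at 17.0 and 15.0, among the highest of the set. It had no FOXA1. PSMG1 had FGFR1 in list 2 only (4.22), and PSMG2 had none at its gene ends. The non-subunits PSMC3IP (7.33) and PSME3IP1 (4.22) had it in list 2 only.

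**Figure D3:**
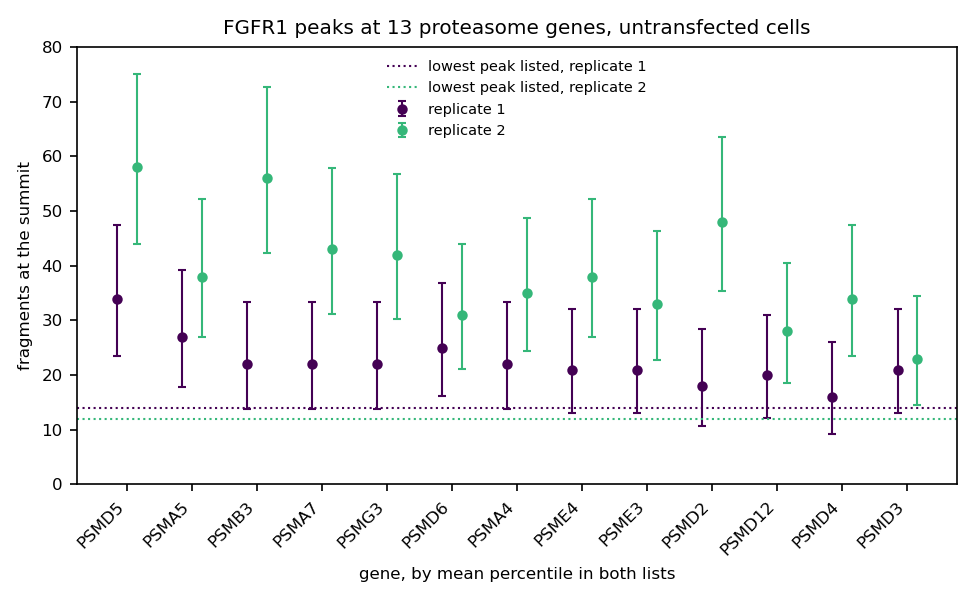
Fragments at the FGFR1 summit (vertical axis) for the 13 genes in both untransfected lists, by mean percentile (horizontal axis). Bars are 95% Poisson intervals for counting error, and dotted lines give the weakest peak listed, 14 and 12 fragments. List 2 lies above list 1 at all 13 genes, from 58 and 34 fragments at PSMD5 to 23 and 21 at PSMD3.

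No H3K4me3 was listed in either list at the annotated ends of 5 members, PSMA6, PSMA8, PSMB11, PSMF1 and PSMG4, and 4 of them had no peak of any kind in any list. PSMA6 had FOXA1 (7.72 and 6.37) at its annotated start and nothing else. RefSeq start sites inside the gene gave another picture for 3 of them. At PSMF1, the inhibitor of the 20S core, the site at chr20:1118602 had H3K4me3 at 102 and 104, H3K27ac at 30.7 and 34.1, Pol II S5P at 11.8 and 9.01, FOXA1 at 5.42 and 4.69, and FGFR1 at 5.46 and 5.77. The site at its annotated end, 1113263, had no peak. PSMG4, at 3258947 on chromosome 6, had H3K4me3 at 99.7 and 101, H3K27ac at 35.4 and 35.6, Pol II S5P at 8.46 and 7.23, and FGFR1 in list 2 (6.44). PSMA6, at 35292317 on chromosome 14, had H3K4me3 at 85.8 and 91.9, H3K27ac at 25.4 and 27.8, and Pol II S5P in list 1 (6.03). The annotated ends thus missed marked start sites of these 3 genes. PSMG2 likewise had a second start site inside the gene, at 12703042 on chromosome 18, with FGFR1 in list 2 (4.44, 19 fragments). There H3K4me3 stood at 98.3 and 98.4, H3K27ac at 37.6 and 38.5, Pol II S5P at 6.48 and 6.78, and FOXA1 at 5.01 and 5.62.

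Counted at start sites, 42 of 44 members had H3K4me3, where 69.4% of the other genes in the promoter table had it. PSMA8, a subunit of the testis, and PSMB11 were the 2 without it. Pol II S5P was at 32 of 44, against 29 by gene ends, since PSMA1, PSMF1 and PSMG4 entered. Its background at start sites was not computed. FGFR1 stayed at 10 of 44, since PSMF1 entered and PSMA5 left. These 10 are all among the 42 with H3K4me3, and the background among other genes with H3K4me3 at a start site was 30.0%.

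By median position around the start sites, FGFR1 summits lay closest to those of Pol II S5P. The medians cover different members for each target, and the order was not the same gene by gene. At PSMF1 in list 1, FGFR1 lay 36 and FOXA1 42 bases before the start, and Pol II S5P 90 after. At PSMD3 in list 1, FGFR1 lay 50 and Pol II S5P 84 bases after the start, and FOXA1 40 before. The median FGFR1 summit was 54.5 and 62.0 bases before the start in lists 1 and 2 (10 and 31 members). All other genes of the promoter table with a peak in the list, marked or not, stood at 36 and 27 bases before the start. Pol II S5P summits had medians of 1 base after and 48.5 bases before the start. H3K4me3 summits lay downstream, at 222 and 219, and H3K27ac at 164 and 174. FOXA1 lay farther upstream, at 136 and 162 bases before the start. Of 21 FOXA1 summits in list 1, 1 was downstream of the start, and of 24 in list 2 none was. For all other genes with a FOXA1 peak there, marked or not, 29.7% and 29.8% were downstream.

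**Figure D4:**
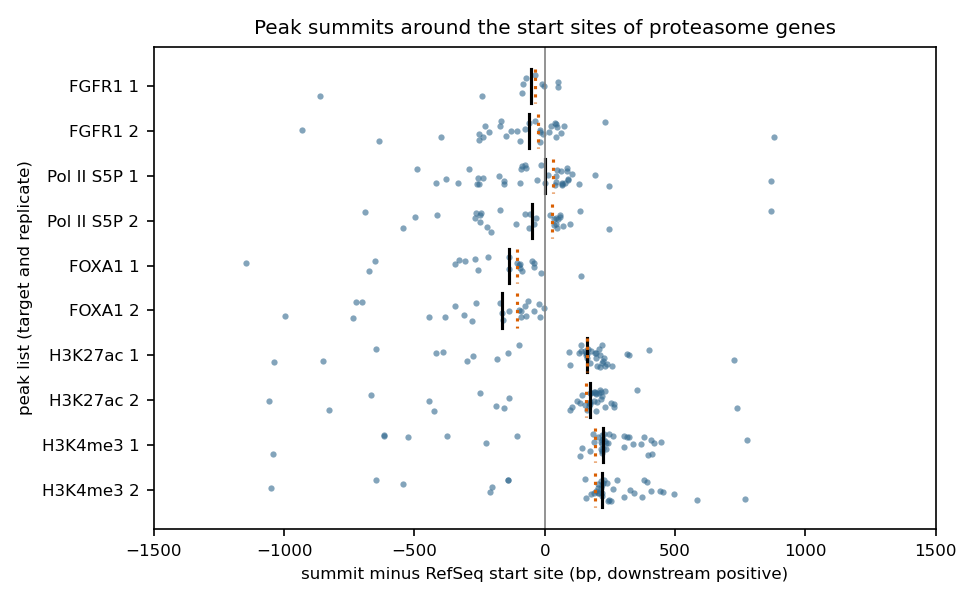
Distance from the RefSeq start site to the summit (horizontal axis, bp, downstream positive) for each proteasome gene with a peak, by list (vertical axis). Solid lines are medians of these genes and dotted lines those of all other genes with a peak in the list. The 3 distant summits of PSMB3 lie off the axis. FGFR1 points gather at the start, FOXA1 points before it and histone marks after it.

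The promoters of the 44 members ran from 250 bases before to 50 after the start, in 55 entries. A gene counted when any of its entries held the motif. An antioxidant response element match was in 15 members (34.1%), beside 18.9% of 10797 comparison genes counted the same way. Of all 22132 promoters of the table it was in 13.8%. That share is per entry, so it is not on the same footing as the shares of genes, here and for the other motifs. The match was in 6 of the 10 FGFR1 members with a promoter entry, PSMA4, PSMB3, PSMD3, PSMD5, PSMD12 and PSME4. At PSMA4 and PSMB3 it lies outside the FGFR1 peaks. For no motif was the share among comparison genes with FGFR1 computed. An ETS match was in 11 (25%, comparison genes 9.47%, all promoters 5.35%), of which 2 were FGFR1 members, PSMD12 and PSME4. NFY was in 22 (50%, 42.7% and 34.6%). The FOX motif was in 2, PSMB2 and PSMD5 (4.55%, 3.32% and 2.85%). In FOXA1 list 1 these 2 genes had the highest folds of all members, and in list 2 PSMD3 and PSMD7 stood above PSMD5. NRF1 was in 2 (4.55%, 6.23% and 3.74%), YY1 in 3 (6.82%, 4.45% and 2.42%) and TATA in 5 (11.4%, 8.35% and 9.46%). These are letter matches only, and genes have up to 3 entries.

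FGFR1 after transfection was compared to see what changed with FOXA1 knockdown. In the siNT lists 6 and 5 members had FGFR1, a mean of 5.50 ± 0.707 (SD, n = 2). In the siFOXA1 lists 3 and 3 had it, a mean of 3.0 ± 0 (SD, n = 2). The members listed were all among the 45 marked ones. The groups did not overlap. The difference of -2.50 members per list had p = 0.333 in a two-sided exact permutation test, the smallest that 2 lists against 2 can give. Other marked genes were also listed less often, at 11.1% and 12.7% in the siNT lists and 6.18% and 5.11% in the siFOXA1 lists. Whether the fall at members differed from this one was not tested, so it is not given as particular to them. The siFOXA1 lists were also shorter (4332 and 5056 peaks against 6007 and 6594), at backgrounds of 2.11 and 2.20 fragments beside 2.19 in each siNT list. With every FGFR1 list cut to its 4332 strongest peaks, the difference was -2 members per list (two-sided exact permutation p = 0.333), with 3 members in both siNT lists and 2 in both siFOXA1 lists. Untransfected FGFR1 lists had higher backgrounds, 3.40 and 3.50, and were made without transfection, so their folds stand beside the others as description.

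In both siNT lists stood 4 members (8.89% of the marked ones, background 7.60%), PSMA5, PSMC4, PSMD6 and PSMD8. In both siFOXA1 lists stood 2 (4.44%, background 3.27%), PSMA5 and PSMD6. The other 2, PSMC4 and PSMD8, were in neither siFOXA1 list. Of 1004 other genes in both siNT lists, 389 were in both siFOXA1 lists and 338 (33.7%) in neither. The members' 2 of 4 are too few to set against this share.

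PSMC4 (chromosome 19, 39971165 to 39981764) had FGFR1 at 6.90 and 7.52 after siNT, from 21 and 23 fragments, and at 3.55 in untransfected list 2. The summits lay 239, 260 and 230 bases before the start. Its FOXA1 was limited to list 2, at 3.0. PSMD8 (chromosome 19, 38374571 to 38383824) had FGFR1 at 4.08 and 4.39 after siNT, from 12 and 13 fragments, and at 9.10 (40 fragments) in untransfected list 2. The siNT summits were not at the same place, 88 bases before and 247 bases after the start. FOXA1 was in both lists (7.51 and 9.37). Single transfected lists held PSMD2 and PSMD11 (siNT list 1, 5.02 each), PSMG3 (siNT list 2), PSMB9 (siFOXA1 list 1) and PSMB4 (siFOXA1 list 2).

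**Figure D5:**
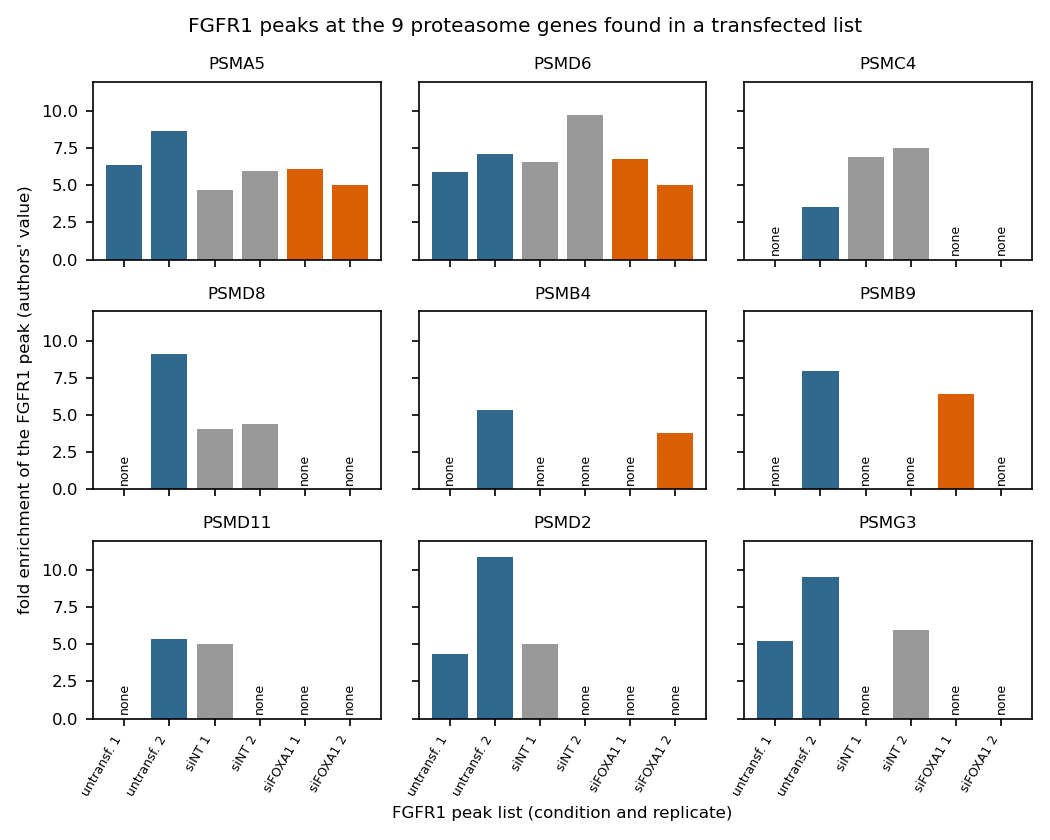
Fold enrichment of the FGFR1 peak (vertical axis, authors' value) in the 6 FGFR1 lists (horizontal axis) for the 9 proteasome genes found in any transfected list. Blue is untransfected, grey siNT and orange siFOXA1, and "none" marks a list with no peak. PSMA5 and PSMD6 have all 6 bars, PSMC4 and PSMD8 have both siNT bars and no siFOXA1 bar.

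Proteasome cofactors and ubiquitin genes outside the symbol rule were scored the same way. Of 30 such genes, 29 had H3K4me3 in both lists. Of these, 25 had Pol II S5P (86.2%, background 58.2%), 16 FOXA1 (55.2%, background 44.1%) and 10 FGFR1 (34.5%, near the background of 29.7%) in both lists. The highest by mean FGFR1 percentile (87.9) was ZFAND5, which stimulates the proteasome, with FGFR1 at 8.64 and 10.2 untransfected, 5.02 and 5.33 after siNT, and 4.50 and 5.0 after siFOXA1. MIDN, which takes proteins to the proteasome without ubiquitin and came next (86.9), had 8.87 and 9.55, then 5.02 and 4.07 after siNT, and none after siFOXA1. UBQLN4, a shuttle factor, had 5.69 and 11.3, with siNT values of 5.96 and 8.15 and siFOXA1 values of 5.47 and 5.32.

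The deubiquitinase UCHL5 had FGFR1 at 5.46 and 8.22 and in siNT list 2 at 5.33. Its receptor on the proteasome, ADRM1, had 5.23 and 8.88, then 10.0 and 8.15 after siNT, and 6.75 in siFOXA1 list 1 only. NFE2L1, the activator of proteasome genes, had 5.23 and 8.22 untransfected and none in the transfected lists, with FOXA1 at 10.0 and 10.3 and Pol II S5P at 13.3 and 9.90. In these 6 genes H3K4me3 folds were at least 95, and H3K27ac folds at least 41.9. FOXA1 was in both lists at ZFAND5 (5.63 and 3.94), UBQLN4 (6.05 and 5.81), UCHL5 (5.22 and 8.62) and ADRM1 (7.51 and 6.19), and in neither list at MIDN.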

How the data were processed

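ChIP-seq peak lists of CAMA1 cells were analysed as deposited, with 2 lists in each of 7 groups. Bowtie2, SAMtools, Picard, MACS2 and the build hg38 are named in the submitters' processing notes, without versions or roles. The authors deposited 1 narrowPeak list per library, each with a linear fold enrichment or ratio to background, -log10 p-values and q-values, a score and a summit position. The deposited score was not used. Fold values lay on a grid that gives whole fragments (tolerance 0.02) in 12 lists, from which summit fragments and background were computed. Pileups stop at 400 fragments, so the strongest H3K4me3 folds may be truncated. Peak names inside the untransfected FGFR1 and the FOXA1 lists disagree with the labels, which were followed.

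Peaks on chromosomes 1 to 22 and X were joined by at least 1 bp to windows of 1 kb around both ends of each gene of a RefSeq table (GRCh38.p14), which gives neither strand nor exons. Strand and start sites came from the RefSeq promoter table. It lacked PSMA7, PSMB1, PSMB6, PSMB7, PSMD4 and PSMG3. Shares carry 95% Wilson intervals. Counts per list were compared by an exact permutation test. Members and gene lists were chosen with earlier results of these data known. Every member was named with its FGFR1 status. Values in every list were given for the 12 members with the highest mean FGFR1 percentile, those with FGFR1 in at least 3 of 4 transfected lists, those without H3K4me3, the immunoproteasome and tissue-specific subunits, and 6 pathway genes. Of the members, 21 have an end within 1 kb of another protein-coding gene. Scoring was tested on simulated data. Python 3.11.15, pandas 2.3.3 and scipy 1.17.1 were used. Alternatives were another window, a stricter q-value, the summit in place of the peak, FGFR1 lists of equal length, other comparison genes, single lists and, chosen after seeing the data, RefSeq start sites, leaving out crowded windows, leaving out the non-subunits, and marked gene ends only.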

Additional observations from a re-analysis of the deposited data

How the results depend on the processing

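Of 91 alternative values, 78 stayed close to the reported one and 13 did not. The difference between siFOXA1 and siNT kept its direction in all alternatives computed for it. For counts, close means within 1.5 times, and for shares, within the 95% Wilson interval of the reported share. For the difference between siFOXA1 and siNT, it means the same direction and side of the test's threshold. With so few lists no p-value could cross that threshold, so only the direction could change. With FGFR1 lists of equal length (4332 peaks), 10 members were in both untransfected lists. With a -log10 q of at least 5, 2 members had FGFR1 in both siNT lists and 0 in both siFOXA1 lists. In the siFOXA1 lists 1 member was left with windows of 500 bp, with the summit required in the window, and, among alternatives chosen after seeing the data, with RefSeq start sites or without the crowded windows. Without 1 list, the untransfected FGFR1 count ranged from 13 to 32 and the difference between siFOXA1 and siNT from -3 to -2 members per list. The FGFR1 share of the comparison genes was 47.3% among those with Pol II S5P and 19.8% among all other protein-coding genes. For Pol II S5P the share among all other genes was 38.7%. For FOXA1 it was 53.9% among genes with Pol II S5P, 32.4% among all other genes, and 40.5% when only marked gene ends counted (chosen after seeing the data). The shares of marked members, 28.9% for FGFR1 and 44.4% for FOXA1, lay below those among genes with Pol II S5P. They lay above those among all other genes, so their standing depends on the comparison genes. The members stayed the marked ones while the comparison genes changed. With members chosen alike, FGFR1 was at 26.0% of all 50 members and at 37.5% of the marked members with Pol II S5P. FOXA1 was at 42.0% of all 50 members. The cause of these shifts was not tested. No value was computed for Pol II S5P among genes chosen for Pol II S5P. Groups share replicate numbers only, and nothing in the labels pairs them. With the replicate number as a block, the difference was -2.50 (-3 and -2 by number), with an exact permutation p = 0.5. A weak peak that misses the caller's threshold counts as none, so absence from a list is limited by its depth.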
